A study of Mus musculus with 6 samples.

Results

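A set of 9 genes of megakaryocytes and platelets was followed on 6 mouse expression arrays in cells given shRNAs to Rad21. Rad21 encodes the clasp of the cohesin ring, which tethers sister chromatids and organises chromatin into loops. The genes were chosen by name, with earlier results of these data known: Clec1b, Itga2b, Itgb3, Gp5, Gp9, Pf4, Ppbp, Vwf and Selp. All 9 of the 9 listed genes had a probe set annotated to that gene alone, 10 probe sets in all, out of 12393 genes and 20380 probe sets tested. The probe sets were 1421182_at for Clec1b, 1417758_at for Itga2b, 1421511_at for Itgb3, 1422817_at for Gp5, 1419720_at for Gp9, 1448995_at for Pf4, 1418480_at for Ppbp, 1435386_at for Vwf, and 1420558_at and the dimmer 1449906_at for Selp. Each of 3 groups had 2 arrays: Rad21 shRNA1, Rad21 shRNA2 and empty vector, the virus without an shRNA. All 3 groups were started from marrow of C57/BL6 animals that were 6 to 8 weeks old. The marrow had been depleted of lineage-positive cells, infected with lentivirus for 24 h, selected with puromycin at 1 µg/mL, sorted for live cells and plated at 10000 cells per mL in methylcellulose with cytokines, and RNA was taken after 7 days. The cytokines are not named in the labels. The labels do not say whether replicates came from separate mice or cultures, so the p-values reflect array-to-array spread alone, and that spread may be technical.

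Megakaryocytes are the marrow cells that shed platelets. They arise from progenitors shared with red cells, under transcription factors of the GATA and ETS families. Platelets bind to damaged vessel walls through a complex of leucine-rich glycoproteins that grips von Willebrand factor, stick to each other through a fibrinogen-binding integrin, and release chemokines and adhesion proteins from alpha granules. Several of these genes are not exclusive to this lineage. Endothelium also makes Vwf and Selp, early progenitors and young mast cells can carry Itga2b, and osteoclasts and macrophages can carry Itgb3. The arrays measured whole colonies in bulk. Fewer megakaryocytes, less RNA per megakaryocyte and changes in other cells that carry these genes therefore cannot be told apart.

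The values are intensities on the log2 scale, in which 1 unit is a doubling, after background correction and quantile normalization by RMA. The median intensity per array lay between 100.2 and 104.9 before logarithms were taken. Empty-vector replicate 1 stood apart: its control probe sets at the 3′ end of Gapdh lay 2.42 log2 units above those at the 5′ end, against -0.078 to 0.017 on the other 5 arrays. A gap of this kind is a usual sign of shortened RNA. Erythroid markers averaged 8.19 on that array and 5.97 to 6.52 on the others. Differences of both shRNAs together from empty vector are therefore also given without it for the 9 genes and Rad21, which leaves 1 control array. Rad21 itself had log2 intensities of 9.63 and 9.14 with shRNA1, 9.50 and 9.11 with shRNA2, and 11.14 and 10.49 with empty vector, so all shRNA arrays lay below both controls. The difference of both shRNAs from empty vector was -1.47 ± 0.26 (standard error, limma adjusted p = 0.0558, and 0.0166 with the replicate number as a block). Without the array that stood apart it was -1.15, and without the other control -1.8. The limma adjusted p was 0.0493 with each array centred on its median, 0.0657 with quantile normalization and 0.0818 with every probe set fitted on its own. Averaged over its probe sets, Rad21 differed by -1.23 (adjusted p = 0.0739).

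All 9 genes had a lower mean with the shRNAs than with empty vector, and 1 of them, Clec1b, passed the threshold. The threshold was an adjusted p of 0.05 from limma, with Benjamini-Hochberg adjustment over all 12393 genes. Over all genes, 1.4% passed it downwards and 2.13% in either direction, and 53.6% had a negative difference. The 9 differences ran from -2.68 to -0.46 with a median of -0.92, beside a median of -0.023 over all genes. In 6 of the 9 genes all 4 shRNA arrays lay below both empty-vector arrays, which held for 13.6% of all genes. At an unadjusted p under 0.05 there were 7 of the 9, against 16.7% of all genes. Since the 9 genes were chosen with earlier results of these data known, these shares describe the genes and are no test of them. Differences are given as shRNA minus empty vector, ± their standard error, over 4 arrays with an shRNA and 2 without.

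**Figure D1:**
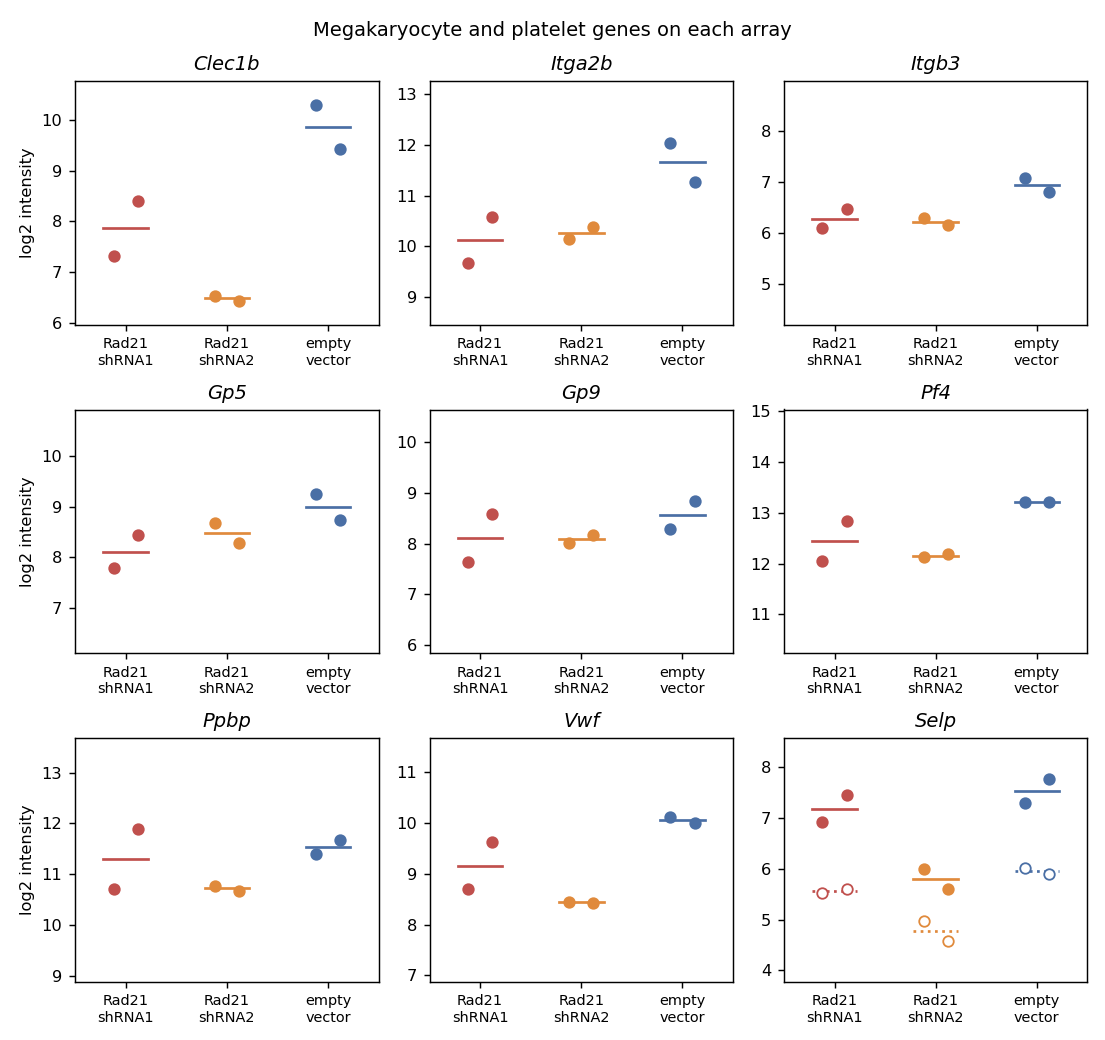
Log2 intensity (vertical axes, each spanning the same number of log2 units) of the 9 genes in the Rad21 shRNA1, Rad21 shRNA2 and empty-vector groups, with replicate 1 left of replicate 2. Points are arrays, short lines are means of 2 arrays, and open points with dotted lines are the dimmer probe set of Selp. Clec1b shows the widest gap, and replicate 2 of shRNA1 lies above replicate 1 in every panel.

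Sequence before the gene start was taken from RefSeq (GRCm38.p6) for 7 of the 9 genes, as the 250 bases up to the start. It was searched on both strands for GATAA, a core that GATA factors read, and for GGAAG, a core that ETS factors read. GATAA was present in 3 of the 7 windows and in 22.6% of 32851 windows of that length. GGAAG was present in 6 of the 7 and in 64.1% of all windows. Both were present in 2 of the 7 and in 13.2% of all. These counts describe letters in a window and were not tested. The 3 windows with GATAA are shown, with that of Itga2b, which held the most GGAAG matches, 4. They lie at chr6:129397047-129397296 (Clec1b, plus strand), chr16:30310782-30311031 (Gp5, minus strand), chr6:87777820-87778069 (Gp9, plus strand) and chr11:102469884-102470133 (Itga2b, minus strand), and read 5′ to 3′ with both motifs in capitals, on whichever strand they were found.
Clec1b: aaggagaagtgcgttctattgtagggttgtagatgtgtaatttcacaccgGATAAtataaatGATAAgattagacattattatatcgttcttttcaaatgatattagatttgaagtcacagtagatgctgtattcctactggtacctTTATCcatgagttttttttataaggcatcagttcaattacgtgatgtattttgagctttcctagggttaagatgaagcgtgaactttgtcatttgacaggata
Gp5: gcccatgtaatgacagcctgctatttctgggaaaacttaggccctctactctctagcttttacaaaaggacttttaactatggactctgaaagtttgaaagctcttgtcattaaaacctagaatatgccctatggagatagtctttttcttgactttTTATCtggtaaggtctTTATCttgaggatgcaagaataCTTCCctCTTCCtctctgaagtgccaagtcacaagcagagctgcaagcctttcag
Gp9: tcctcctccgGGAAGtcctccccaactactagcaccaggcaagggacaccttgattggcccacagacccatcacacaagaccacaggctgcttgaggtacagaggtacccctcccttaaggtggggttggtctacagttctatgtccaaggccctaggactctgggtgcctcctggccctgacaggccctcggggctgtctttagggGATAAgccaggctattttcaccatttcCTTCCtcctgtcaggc
Itga2b: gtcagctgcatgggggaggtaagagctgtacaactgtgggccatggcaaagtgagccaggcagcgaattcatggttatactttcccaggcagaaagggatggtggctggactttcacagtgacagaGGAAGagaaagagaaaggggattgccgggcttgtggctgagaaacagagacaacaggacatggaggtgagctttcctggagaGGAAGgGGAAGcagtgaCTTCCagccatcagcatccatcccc
The Clec1b window held 3 GATAA matches and 0 GGAAG matches, that of Gp5 held 2 and 2, and that of Gp9 held 1 and 2. Clec1b, with the largest difference of the 9 genes (-2.68), and Gp9, with the smallest (-0.46), both carried GATAA.

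The receptors come first. Clec1b encodes the platelet receptor for podoplanin, which signals through the kinase Syk. Its log2 intensity was 7.32 and 8.40 with shRNA1, 6.53 and 6.44 with shRNA2, and 10.29 and 9.42 with empty vector. The groups did not overlap, and both shRNA2 arrays lay below both shRNA1 arrays. Clec1b fell by 2.68 ± 0.37 with both shRNAs (adjusted p = 0.0329), to 15.6% of the empty-vector level. Without empty-vector replicate 1 the difference was -2.25 (adjusted p = 0.0416). The call was lost without shRNA1 replicate 1 (adjusted p = 0.0918) and without either shRNA2 array (0.154 and 0.146), while the difference stayed between -2.71 and -2.41. It was also lost when every probe set was fitted on its own, which raised the number of tests to 20380 (adjusted p = 0.0524).

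Itga2b and Itgb3 encode the alpha and beta chains of the platelet integrin that binds fibrinogen. Itga2b stood at 9.68 and 10.59 with shRNA1, 10.14 and 10.39 with shRNA2, and 12.03 and 11.28 with empty vector. All shRNA arrays were below both controls, and the lowest was shRNA1 replicate 1. The difference was -1.46 ± 0.33 (36.4% of empty vector, adjusted p = 0.101), and -1.08 without empty-vector replicate 1 (adjusted p = 0.158). Itgb3 was dim, with 6.10 and 6.46 for shRNA1, 6.29 and 6.16 for shRNA2, and 7.08 and 6.81 for empty vector. Again no shRNA array reached a control, at a difference of -0.69 ± 0.17 (adjusted p = 0.119, and -0.56 at 0.164 without empty-vector replicate 1). Without empty-vector replicate 2, which leaves replicate 1 as the only control, the differences were -1.84 for Itga2b and -0.83 for Itgb3.

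Gp5 and Gp9 encode leucine-rich glycoproteins of the complex that binds von Willebrand factor. Gp5 had 7.78 and 8.45 with shRNA1, 8.67 and 8.29 with shRNA2, and 9.24 and 8.73 with empty vector. The groups came close, the highest shRNA2 array lying just below the lower control, and the difference was -0.69 ± 0.26 (adjusted p = 0.271, and -0.43 without empty-vector replicate 1). For Gp9 the values were 7.65 and 8.59 with shRNA1, 8.01 and 8.18 with shRNA2, and 8.30 and 8.84 with empty vector. Here the groups overlapped, since shRNA1 replicate 2 exceeded empty-vector replicate 1. The difference of -0.46 ± 0.30 had a 95% confidence interval from -1.20 to 0.28 (adjusted p = 0.516). It moved to -0.73 when empty-vector replicate 1 was dropped and to -0.70 when shRNA1 replicate 2 was, and to -0.19 for empty-vector replicate 2 dropped and -0.22 for shRNA1 replicate 1 dropped.

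Gp1bb, the beta chain of the same complex, is not among the 9 genes and was singled out after its values were seen. It had 7.14 and 8.37 with shRNA1, 7.49 and 7.57 with shRNA2, and 9.88 and 9.45 with empty vector. Its difference was -2.02 ± 0.35 (adjusted p = 0.0553), and without empty-vector replicate 1 it was -1.81 (0.0853). The adjusted p was 0.0470 with each array centred on its median, 0.0690 with quantile normalization and 0.0605 with the replicate block. Averaged over its probe sets, Gp1bb differed by only -1.17 (adjusted p = 0.109). How far Gp1bb differed from Gp5 and Gp9 was not tested.

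Among the granule proteins, Pf4 encodes platelet factor 4, a chemokine stored in alpha granules. Pf4 was bright on every array, with 12.05 and 12.84 for shRNA1, 12.13 and 12.19 for shRNA2, and 13.22 and 13.22 for empty vector. The controls were almost level, and each shRNA array was lower. The difference was -0.92 ± 0.23 (52.9% of empty vector, adjusted p = 0.129), and also -0.92 without empty-vector replicate 1 (0.162). Ppbp encodes the precursor of further platelet chemokines, and its gene lies next to Pf4. It had 10.71 and 11.89 with shRNA1, 10.76 and 10.68 with shRNA2, and 11.40 and 11.68 with empty vector. Replicate 2 of shRNA1 was the highest of the 6 arrays, so the groups overlapped, and the difference was -0.53 ± 0.33 (95% confidence interval from -1.34 to 0.28, adjusted p = 0.494). It was -0.67 without empty-vector replicate 1 (0.459), and ran from -0.23 without shRNA1 replicate 1 to -0.82 without shRNA1 replicate 2.

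Vwf encodes von Willebrand factor, the large adhesive protein of platelet granules and endothelium. Its values were 8.70 and 9.63 with shRNA1, 8.45 and 8.43 with shRNA2, and 10.13 and 10.00 with empty vector. No shRNA array reached the controls, and shRNA1 replicate 2 came nearest. The difference was -1.26 ± 0.27 (41.7% of empty vector, adjusted p = 0.0868), the next smallest adjusted p after that of Clec1b. Without empty-vector replicate 1 it was -1.20 (0.123). With other arrays dropped, Vwf passed without empty-vector replicate 2 (0.0416) or shRNA1 replicate 2 (0.0479), and missed without shRNA1 replicate 1 (0.140) or an shRNA2 array (0.288 and 0.268). Selp encodes P-selectin, which sits in the granule membrane and reaches the platelet surface on activation. Its brighter probe set had 6.91 and 7.45 with shRNA1, 6.00 and 5.60 with shRNA2, and 7.30 and 7.77 with empty vector, so shRNA1 overlapped the controls and shRNA2 did not. The difference of both shRNAs was -1.04 ± 0.24 (adjusted p = 0.104), and -1.27 without empty-vector replicate 1 (0.0587). The dimmer probe set of Selp had 5.52 and 5.61 with shRNA1, 4.98 and 4.59 with shRNA2, and 6.03 and 5.90 with empty vector, a difference of -0.79 ± 0.16 (adjusted p = 0.109 over all probe sets). Of 12 endothelial markers, 0 passed by limma and 2 had an unadjusted p under 0.05, which 16.7% of all genes reached. The 2 were Icam2 (0.70 ± 0.22, adjusted p = 0.197) and Eng (0.35 ± 0.13, 0.270). The mean of the 12 was 5.37 to 5.59 on the shRNA arrays and 5.29 to 5.53 on the empty-vector arrays. The defining endothelial cadherin Cdh5 was singled out after its values were seen. It was dim throughout, at 4.36 to 4.43 on the shRNA arrays and 4.67 and 4.40 on the empty-vector arrays. Whether endothelial cells contributed to the values of Vwf or Selp was not tested.

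The shRNAs were then taken singly. These comparisons share the empty-vector arrays. With shRNA2, 2 of the 9 genes fell, where 1.95% of all genes passed downwards and 2.83% in either direction, and in 9 of 9 both arrays lay below both controls, where 22.6% of all genes did. With shRNA1 none of the 9 passed by limma, where 0.137% of all genes passed downwards and 0.234% in either direction. All 9 differences were negative with each shRNA, as were 55.2% of those over all genes with shRNA1 and 51.6% with shRNA2. For shRNA2, 6 of 9 had an unadjusted p under 0.05 (17.8% of all genes). For shRNA1, 6 of 9 had an unadjusted p under 0.05 (9.3% of all genes), and in 6 of 9 both arrays lay below both controls (19.5% of all genes). Clec1b fell by 3.37 ± 0.43 with shRNA2 (10.3-fold, adjusted p = 0.0232) and differed by -1.99 ± 0.43 with shRNA1 (adjusted p = 0.193). Selp fell by 1.73 ± 0.28 with shRNA2 (adjusted p = 0.0381) and differed by -0.35 ± 0.28 with shRNA1 (adjusted p = 0.744). Without empty-vector replicate 1, shRNA1 gave -1.56 for Clec1b and -0.58 for Selp, and shRNA2 gave -2.94 and -1.97. Without either shRNA2 array both calls were lost (adjusted p = 0.178 and 0.199 for Clec1b, 0.207 and 0.261 for Selp), and that of Selp was also lost without either shRNA1 array (0.0745). Both Selp probe sets missed the threshold with every probe set fitted (adjusted p = 0.0557 and 0.0544). In that fit 0 of the 10 probe sets passed for both shRNAs and 1, that of Clec1b, for shRNA2, where 0.927% and 1.51% of all probe sets did. Vwf differed by -1.62 ± 0.31 with shRNA2 (adjusted p = 0.0585) and by -0.90 ± 0.31 with shRNA1 (adjusted p = 0.442). Without empty-vector replicate 1, Vwf differed by -1.56 with shRNA2 and by -0.84 with shRNA1.

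Set directly against each other, the shRNAs did not differ past the threshold in any of the 9 genes, nor did any of the 12393 genes pass by limma. An unadjusted p under 0.05 was reached by 2 of the 9 and by 4.89% of all genes. Those were Selp and Clec1b, for which shRNA1 minus shRNA2 was 1.38 ± 0.28 (limma adjusted p = 0.427) and 1.38 ± 0.43 (limma adjusted p = 0.76). In 3 of the 9 genes, these and Vwf, both shRNA1 arrays lay above both shRNA2 arrays, as in 17.7% of all genes. The difference was negative for 2 of the 9, Itga2b and Gp5, and for 55.0% of all genes. Vwf differed by 0.72, with a 95% confidence interval from -0.031 to 1.48. For the integrin chains the intervals were -1.06 to 0.80 for Itga2b and -0.42 to 0.54 for Itgb3. Rad21 itself differed by 0.077 between the shRNAs, with an interval from -0.65 to 0.81.

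**Figure D2:**
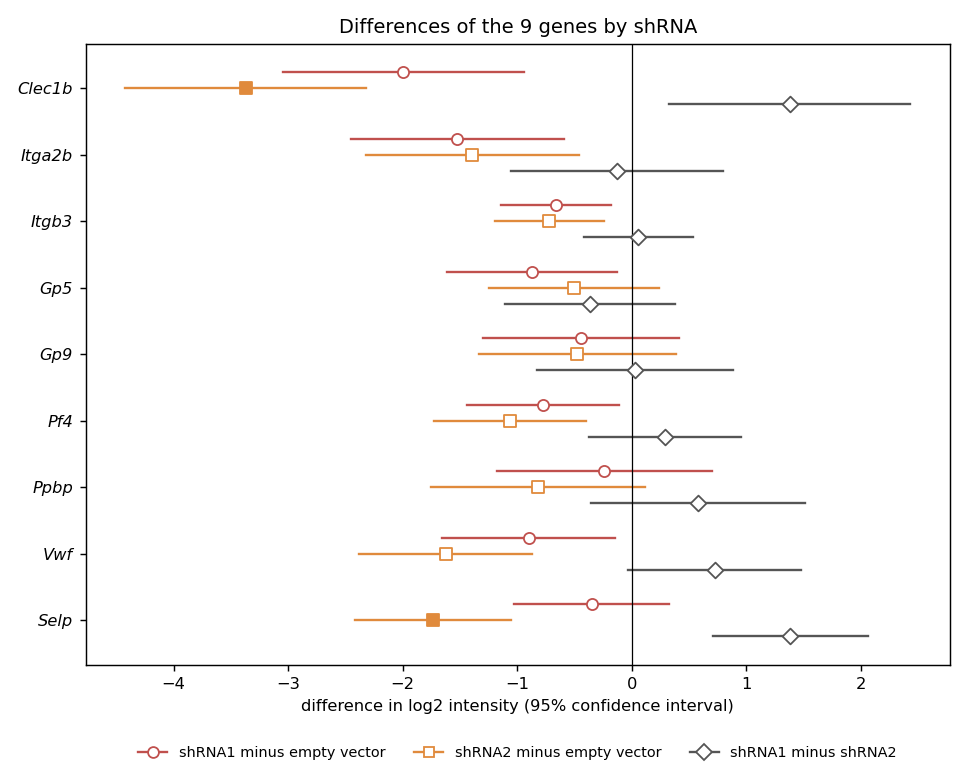
Difference in log2 intensity (horizontal axis) of each of the 9 genes for shRNA1 minus empty vector, shRNA2 minus empty vector and shRNA1 minus shRNA2, with 95% confidence intervals from limma. Filled symbols passed an adjusted p of 0.05 and open ones did not. Only Clec1b and Selp with shRNA2 are filled, at -3.37 and -1.73.

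The shRNA1 replicates differed from each other in the same direction throughout. Replicate 2 exceeded replicate 1 in 9 of 9 genes, by 0.36 for Itgb3 up to 1.18 for Ppbp, where 59.4% of all genes had replicate 2 higher and the median gap over all genes was 0.054. Mast cell and basophil markers averaged 0.66 higher on shRNA1 replicate 2 than on replicate 1, neutrophil markers averaged 0.51 lower, and erythroid markers averaged 0.01 higher. Between the empty-vector replicates the 9 genes split, with 5 higher on replicate 1 (58.0% of all genes), led by Clec1b (0.87) and Itga2b (0.76), and 4 higher on replicate 2, led by Gp9, at -0.54 for replicate 1 minus replicate 2. The mean of the 9 genes was 8.54 and 9.37 with shRNA1, 8.55 and 8.48 with shRNA2, and 9.89 and 9.75 with empty vector.

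Markers of other marrow lineages moved as well, in both directions. Over all genes, 1.4% passed downwards and 0.734% upwards, and 53.6% had a negative difference. Of 12 measured mast cell and basophil markers, 3 fell and all 12 had negative differences, with means of 10.21 to 10.87 on the shRNA arrays against 11.29 and 11.92 on the empty-vector arrays. The 3 were the IgE receptor chain Fcer1a (-2.04 ± 0.26, adjusted p = 0.0272), the protease Mcpt2 (-2.04 ± 0.25, 0.0225) and the receptor Kit (-1.61 ± 0.25, 0.0412). The call of Kit was lost with quantile normalization (0.0529) and among the brighter 50% of genes (0.0510). Of 14 neutrophil markers, 6 rose and none fell, led by the granule proteins Mpo (5.34 ± 0.49, adjusted p = 0.0124), Elane (4.98 ± 0.21, 0.00293) and Prtn3 (4.93 ± 0.34, 0.00813) and by Ms4a3 (4.15 ± 0.60, 0.0365), and their mean was 11.34 to 11.92 on the shRNA arrays against 9.72 and 9.04. Of 14 macrophage markers, the scavenger receptors Cd36 (-2.94 ± 0.34, adjusted p = 0.0199) and Marco (-2.09 ± 0.32, 0.0412) fell and the Fc receptor Fcgr1 rose (2.51 ± 0.27, 0.0162). The call of Marco was lost with the replicate block (0.0514) and with quantile normalization (0.0554). Of 11 erythroid markers 0 passed by limma (4 at an unadjusted p under 0.05, which 16.7% of all genes reached). The smallest p belonged to Rhag (-2.77 ± 0.92, adjusted p = 0.220) and Klf1 (-0.67 ± 0.24, 0.246), at -1.11 and -0.34 without empty-vector replicate 1. Of 7 markers listed as pan-haematopoietic, meaning broad among blood cells, 0 passed by limma. An unadjusted p under 0.05 was reached by 3 of them, beside the same 16.7%. Their mean was 11.17 to 11.24 on the shRNA arrays, against 10.30 on empty-vector replicate 1 and 11.15 on replicate 2. Coro1a differed by 0.61 ± 0.15 (adjusted p = 0.124) and Cd48 by 1.97 ± 0.75 (0.271). Averaged over its probe sets, Coro1a differed by 0.17. Cd48 had 10.31 to 10.73 on the shRNA arrays, against 7.06 on empty-vector replicate 1 and 9.98 on replicate 2, and differed by 0.51 without replicate 1. The defining marker Ptprc, singled out after its values were seen, was bright on all arrays, at 12.01 to 12.12 with the shRNAs and 11.66 and 11.97 with empty vector. Of 20 named genes outside the 9 that passed, the calls lost were 16 without shRNA1 replicate 1, 10 without shRNA1 replicate 2, 19 without shRNA2 replicate 1, 16 without shRNA2 replicate 2 and 0 without empty-vector replicate 1. The part of these other lineages in the differences of the 9 genes was not tested.

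**Figure D3:**
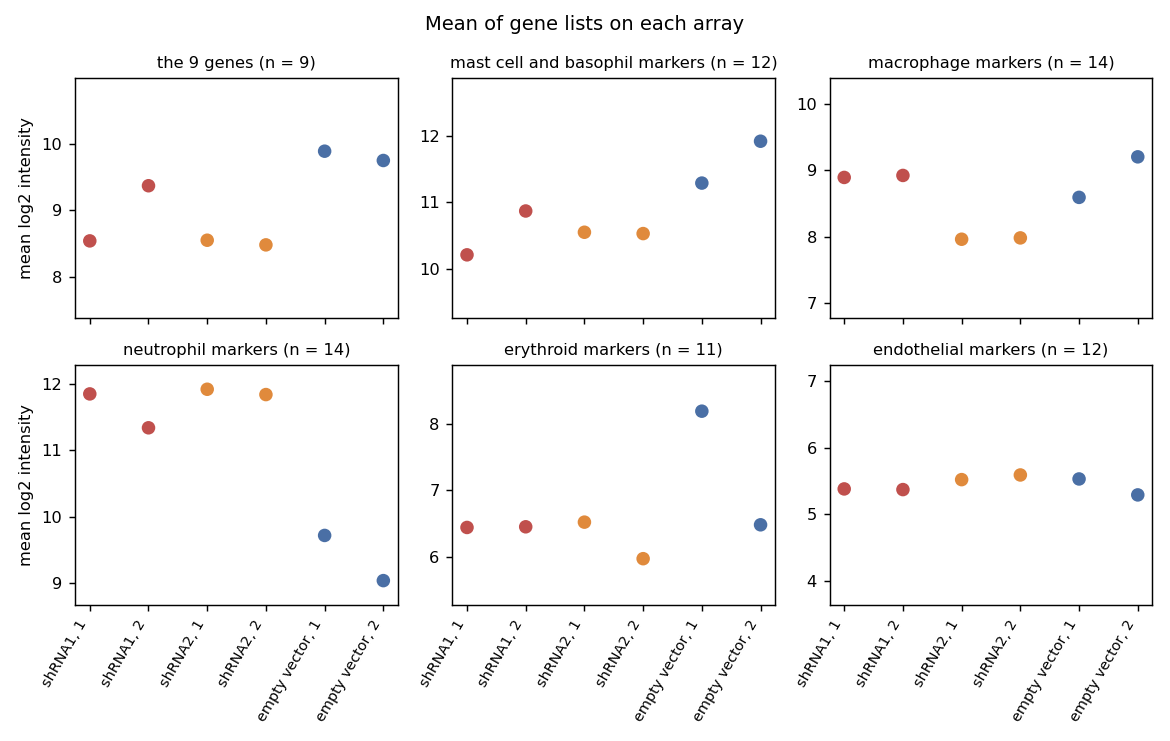
Mean log2 intensity (vertical axes, each spanning the same number of log2 units) of the 9 genes and of 5 marker lists on each array, shRNA1 and shRNA2 left of empty vector. The 9 genes and the mast cell markers stand below both controls on each of the 4 shRNA arrays, neutrophil markers are higher, and erythroid markers stand out at 8.19 on empty-vector replicate 1.

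Other genes of megakaryocytes and platelets were taken from 4 further lists with 80 genes, of which 69 had a probe set. Of these, 4 fell and 1 rose with both shRNAs, where 1.4% of all genes passed downwards and 0.734% upwards. Negative differences were found in 44 of 69, and in 53.6% of all genes. The median difference of the 69 was -0.14, beside -0.92 for the 9 genes and -0.023 for all genes. None of these calls held without shRNA1 replicate 1 or without either shRNA2 array. A further list held binding partners of the 9 genes' products, which other cells make. The shares over all genes given here also stand beside the counts of each list below.

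Among 18 other platelet receptors, 2 fell and none rose. F11r, an adhesion molecule of tight junctions and platelets, had 8.29 and 8.55 with shRNA1, 7.53 and 7.55 with shRNA2, and 9.50 and 9.22 with empty vector. It fell by 1.38 ± 0.16 (adjusted p = 0.0189), but averaged over its probe sets the difference was -0.74 and missed (0.0739). Itga6, the alpha chain of a laminin receptor, fell by 1.54 ± 0.23 (adjusted p = 0.0404), and its values were 8.11 and 8.82 with shRNA1, 7.53 and 7.63 with shRNA2, and 9.41 and 9.71 with empty vector. The groups were apart in both genes, with shRNA2 lowest. The ADP receptor P2ry1, singled out after its values were seen, had a difference of -1.41 ± 0.29 (adjusted p = 0.0859). It passed with the replicate block (0.0382). The controls differed from each other: the difference was -1.89 without empty-vector replicate 1 and -0.93 without replicate 2.

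Of 14 genes for granule cargo and granule assembly, 1 fell and 1 rose. Pdgfa, a growth factor chain stored in alpha granules, had 6.73 and 6.91 with shRNA1, 6.20 and 6.08 with shRNA2, and 8.29 and 8.56 with empty vector, and fell by 1.95 ± 0.15 (adjusted p = 0.00832). F13a1, the A subunit of the clot-linking factor XIII, is made by monocytes and macrophages as well as megakaryocytes. It went the other way, with 11.80 and 11.36 for shRNA1, 11.31 and 11.25 for shRNA2, and 9.31 and 8.95 for empty vector, and rose by 2.30 ± 0.19 (adjusted p = 0.00942). The list's median was 0.023.

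Of 21 genes for enzymes, cytoskeleton and signalling, 1 fell. Prkcq, a protein kinase C that also serves T cells, had 6.39 and 7.24 with shRNA1, 5.54 and 6.46 with shRNA2, and 8.89 and 8.81 with empty vector, and fell by 2.44 ± 0.34 (adjusted p = 0.0329). Alox12, the platelet lipoxygenase, was singled out after its values were seen. It differed by -2.19 ± 0.38 (adjusted p = 0.0558), and by -2.15 without empty-vector replicate 1 (0.0786). The adjusted p was 0.0459 with each array centred on its median, 0.0663 with quantile normalization and 0.0655 with the replicate block. Averaged over its probe sets, Alox12 differed by -1.45 (adjusted p = 0.073). The list's median was -0.13.

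None of 16 megakaryocyte transcription factors passed by limma, and 5 had an unadjusted p under 0.05, which 16.7% of all genes reached. The smallest p belonged to Gfi1b, a repressor that megakaryocyte and red cell development need. It had 7.13 and 7.38 with shRNA1, 7.30 and 7.38 with shRNA2, and 8.40 and 7.92 with empty vector, a difference of -0.86 ± 0.18 (adjusted p = 0.0872). Gata2, which also serves mast cells and stands among their markers above, differed by -0.98 ± 0.23 (adjusted p = 0.109). Without empty-vector replicate 1 the differences were -0.62 for Gfi1b and -0.76 for Gata2. Without replicate 2, which leaves the array with the Gapdh gap as the only control, they were -1.1 and -1.21. Gata1, the lineage's main GATA factor, differed by -1.17 ± 0.37 (adjusted p = 0.206). It differed by -0.55 without empty-vector replicate 1 and by -1.79 without replicate 2. Its cofactor Zfpm1 differed by -1.12 ± 0.34, and by -0.59 averaged over its probe sets. Zfpm1 differed by -0.52 without replicate 1 and by -1.73 without replicate 2. The ETS factor Fli1 lay the other way at 0.54 ± 0.18 (adjusted p = 0.223). It lay at 0.32 without empty-vector replicate 1 and at 0.76 without replicate 2. Gata1, Zfpm1 and Fli1 were chosen after their values were seen.

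Of 9 measured binding partners of the 9 genes' products, 1 fell. This was Pdpn, or podoplanin, the ligand of the Clec1b product. Pdpn had 9.55 and 10.20 with shRNA1, 7.58 and 8.29 with shRNA2, and 11.14 and 11.20 with empty vector, so that the 3 groups were apart from each other. It fell by 2.26 ± 0.27 (adjusted p = 0.0222), and by 2.29 without empty-vector replicate 1 (adjusted p = 0.0310). Pdpn fell by 3.23 with shRNA2 (adjusted p = 0.0122) and differed by -1.29 with shRNA1 (0.244), and shRNA1 minus shRNA2 was 1.94 ± 0.31 (0.297). Selplg, which encodes the ligand of P-selectin, differed by -0.40 ± 0.16 (adjusted p = 0.308).

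**Figure D4:**
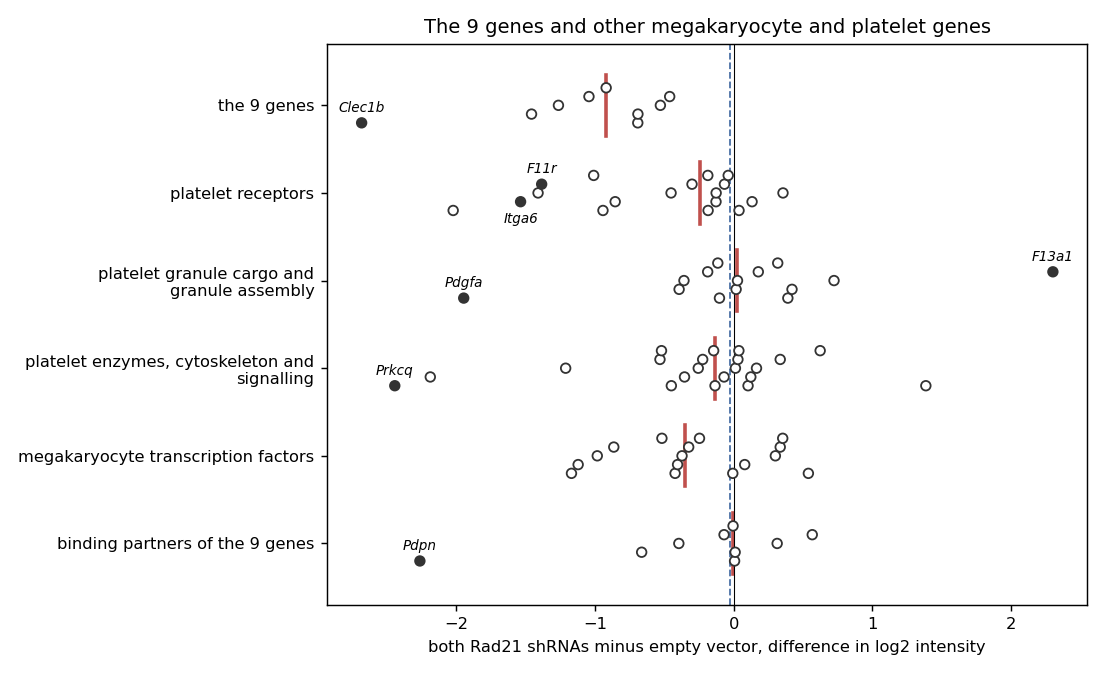
Difference in log2 intensity, both shRNAs minus empty vector (horizontal axis), for the 9 genes for 4 lists of other megakaryocyte and platelet genes and for their binding partners. Points are genes, filled and named where the adjusted p passed 0.05, red bars are medians, and the dashed line is the median of all genes at -0.023. The median of the 9 genes is -0.92 and the medians of the other lists lie between -0.35 and 0.023.

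Profiles were also compared over the 6 arrays, as the root mean square distance between log2 profiles after centring each gene on its own mean. The nearest genes to Clec1b were Bex1 (0.283), Speg (0.306) and Tent5c (0.334), which differed by -2.82, -2.91 and -2.87 with both shRNAs. Averaged over its probe sets, Speg differed by -1.06. The nearest of the other 8 genes was Vwf at 0.753, which ranked 116th among all genes, and the median distance of all genes to Clec1b was 1.43. For Pf4 the nearest were Capn15 (0.099), Copz2 (0.112) and Pi4k2a (0.121), with Itgb3 at 0.213 the nearest of the 9. For Itga2b they were Lat (0.152), an adaptor of platelet and T cell receptor signalling, Slc30a2 (0.178) and Egr1 (0.183), with Pf4 at 0.382 the nearest of the 9. The distance is in log2 units and depends on the size of a gene's change as well as its shape.

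Position on the chromosome was examined through the nearest measured gene on either side of each of the 9, in the RefSeq gene order of GRCm38.p6. Pf4 and Ppbp are neighbours of each other. The gene on the far side of Ppbp, Cxcl5, encodes a chemokine of the same family and was dim, with 3.86 and 3.83 for shRNA1, 4.0 and 3.46 for shRNA2, and 5.23 and 5.01 for empty vector. Cxcl5 fell by 1.33 ± 0.19 (adjusted p = 0.0362). It was the only neighbour past the threshold with all arrays, where 1.4% of all genes passed downwards. On the far side of Pf4, Cxcl15 differed by 0.22 ± 0.16. Cd9, a tetraspanin of platelets next to Vwf, differed by -0.18 ± 0.33 (adjusted p = 0.846), at -0.79 without empty-vector replicate 1 and 0.42 without replicate 2. Clec7a, the nearest measured gene after Clec1b, differed by -0.96 ± 0.32 (adjusted p = 0.223). It differed by -1.51 without empty-vector replicate 1 and by -0.4 without replicate 2. On the other side of Clec1b, Clec2m was dim and differed by -0.03 ± 0.13. The remaining neighbours differed by between -0.32 (Atp13a3) and 0.87 (Tlk2, with controls at 6.44 and 7.65).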

How the data were processed

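Intensities of 22690 probe sets on 6 arrays were deposited on a linear scale, running from 4.96 to 20614.6. The authors made these intensity values with RMA, per the submitters' processing notes. This method removes background, equalises the distributions of the arrays by quantiles and reduces each probe set to a single value. Neither the RMA version nor the software was stated in the labels. Quantile normalization hides changes in total RNA per cell, and RMA compresses differences of dim probe sets. Signal over background is not part of the file, so no gene was called absent, and the number of arrays limits the precision.

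Values were turned into log2 with no pseudocount. Gene names came from the platform's annotation, which gave 20393 probe sets 1 gene and 691 several, and 64 Affymetrix control probe sets were left out of the tests. Of the 20380 used, 20351 had an Entrez number in the RefSeq table. A gene was represented by its brightest probe set over the 6 arrays. limma 3.58.1 (R 4.3.3; lmFit, eBayes) fitted the 3 groups together, with 3 residual and 2.91 prior degrees of freedom, and all tests were two-sided. The script was tested on simulated data. Tables and plots used Python 3.11.15, pandas 2.3.3, numpy 2.4.6, scipy 1.17.1 and matplotlib 3.10.9.

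Same-numbered arrays deviated together: the correlation over genes of the deviations from the group mean was 0.199 for empty vector and shRNA1, 0.148 for empty vector and shRNA2, and 0.578 for shRNA1 and shRNA2. With 2 arrays per group, exchanging the numbers in a group only reverses the sign of its correlations, so the check cannot establish pairing. The replicate block rests on this check and on the numbers in the titles. No 2 arrays held the same values.

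The 9 genes and all lists were chosen with earlier results of these data known. Named beside them were Rad21 and, from each other list, up to 4 genes past the threshold or else the 2 with the smallest p. Cdh5, Ptprc, Selplg, Gata1, Zfpm1, Fli1 and the genes said to be singled out were named outside this rule, after their values were seen. The same holds for the genes named as neighbours on the chromosome. For Clec1b, Pf4 and Itga2b the 3 nearest genes are named. Alternatives were each array left out, the replicate block, filters on dim genes, other summaries of probe sets, other normalizations, an intensity trend in eBayes and fits of only the groups compared.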

Additional observations from a re-analysis of the deposited data

How the results depend on the processing

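The count of the 9 genes past the threshold was 1 for both shRNAs, 0 for shRNA1, 2 for shRNA2 and 0 between the shRNAs. With every probe set fitted it was 0 for both shRNAs and 1 for shRNA2, and it was 1 for shRNA2 when only the brighter genes were kept (the dimmer 50% dropped, Selp among them). With an array left out, it ranged from 0 to 4 for both shRNAs, from 0 to 3 for shRNA1 and from 0 to 5 for shRNA2. The highest counts came without empty-vector replicate 2, when the array with the Gapdh gap was the only control and 3121 of all genes passed for both shRNAs. The counts of 0 for both shRNAs came without shRNA1 replicate 1 or either shRNA2 array, and that of 0 for shRNA2 without either shRNA2 array. The count of other megakaryocyte and platelet genes with their binding partners, 6, ranged from 0 to 28 with an array left out, an alternative added after the data were seen, and was 8 with the replicate block. Over all genes, calls for both shRNAs numbered 264, against 113 among the brighter genes and 3 to 3121 with an array left out. For shRNA1 they numbered 29, against 11 of all probe sets, 3 among the brighter genes, 56 with median centring, 59 with an intensity trend, 0 when only the groups compared were fitted and 0 to 2534 with an array left out. For shRNA2 they numbered 351, against 180 among the brighter genes, 120 when only the groups compared were fitted and 0 to 2941 with an array left out. Between the shRNAs there were 0, against 44 when only these groups were fitted.

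With the replicate number as a block the counts for the 9 genes stayed at 1, 0, 2 and 0. The block changed no call among the 9, and of the other named genes it changed those of Rad21, P2ry1 and Marco, as given above. With every probe set fitted, Cxcl5, Itga6, Kit, Marco, Ms4a3 and Prkcq also missed (adjusted p = 0.0524 to 0.0637), and with an intensity trend Alox12, Gp1bb and Egr1 passed (0.0435 to 0.0490). Fitting only the groups compared moved Vwf past the threshold for shRNA2 (adjusted p = 0.0403) and Selp out of it (0.0745). For both shRNAs together that fit is the one already reported.

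Outside the fits with an array left out, none of 307 values for single genes and contrasts changed direction. Without an array, 9 of 216 did, all in contrasts that missed the threshold. These were, for shRNA1 minus empty vector, Gp9 (-0.92 to 0.025) and Ppbp (-0.83 to 0.35), and for shRNA1 minus shRNA2, Pf4 (-0.11 to 0.68), Itga2b (-0.58 to 0.32), Itgb3 (-0.12 to 0.24), Gp9 (-0.44 to 0.50) and Ppbp (-0.013 to 1.17). The lone array of a group was taken to vary like the others. Groups of 2 arrays limit what can be told apart, and dim probe sets such as those of Selp and Itgb3 limit it further.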
